A study of Homo sapiens with 60 samples.

Results

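Polygalae Radix, the dried root of Polygala used in East Asian herbal medicine, was applied to HepG2 cells as a hot water extract, and the comparison described here sets the high dose of 450 µg/mL against the low dose of 18 µg/mL. The members were the libraries whose titles name these doses, 3 at the high dose and 3 at the low dose, 6 of the 60 libraries in all. HepG2 is a line grown from a human hepatocellular carcinoma, and all libraries came from HepG2 cells, with no genetic change named in the labels, cultured for 24 h with an extract, wortmannin or vehicle alone. The series covers 6 herbal water extracts at 3 doses each, wortmannin at 10 µM and a DMSO vehicle, with 3 libraries in each of its 20 groups, and messenger RNA was counted by paired-end sequencing. Beside the high and low doses, the 3 libraries of the medium dose of 90 µg/mL, the 3 vehicle libraries and the high (500 µg/mL) and low (20 µg/mL) doses of Aucklandiae Radix, 3 libraries each, were used, this second extract because its libraries carry the same first number, 4, in their sample codes. The vehicle libraries carry a code of another set, A1, so the code set and the treatment cannot be told apart in any comparison with them. Per the series' design, an extract with a 20% inhibitory concentration under 500 µg/mL was used at that concentration and at its dilutions by 5 and 25, and the Polygalae doses have these ratios, so by that rule the high dose is the 20% inhibitory one. Nothing in the labels says whether replicates were separate cultures, so p-values measure the spread between libraries only.

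An extract of many compounds meets several sensors in a liver cell. The aryl hydrocarbon receptor binds flat aromatic ligands and switches on CYP1A1, a monooxygenase of drug and carcinogen oxidation, and NRF2, freed from KEAP1 by electrophiles or oxidants, switches on genes of glutathione and thioredoxin metabolism. Metallothioneins are small cysteine-rich proteins that hold zinc and copper and are induced through the metal sensor MTF1, while the chaperones of the endoplasmic reticulum fold secreted proteins, the main export of hepatocytes, and are induced by unfolded protein through ATF6 and XBP1.

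Library totals ran from 20.21 M to 36.41 M counts (M, mega) over the 60 libraries and from 21.57 M to 29.98 M in the high-dose and low-dose libraries. All 10 hepatocyte markers were detected in all 6 libraries. Of the markers of other cells, KDR, TEK and ERG of endothelium and CD163, MARCO and PTPRC of macrophages, COL1A2 and DCN of stellate cells and CFTR and AQP1 of bile duct cells were at 0 in all 6 libraries. In all, 5 of 10 endothelial and 7 of 10 macrophage markers were at 0 in all 6. PECAM1, CDH5, VWF and LYVE1 of endothelium and CD68 and CD14 of macrophages had counts in all 6. CD68, the highest of these, averaged 42.7 CPM at the high dose and 40 CPM at the low dose. None of the 4 endothelial, 2 macrophage or 4 stellate cell markers with enough counts to be tested passed edgeR's test. The summed level of 10 stellate cell markers was 56.9, 54.2 and 55 CPM in the high-dose libraries, against 71.8, 64.8 and 63 CPM in the low-dose libraries, without overlap. Most of this sum was ACTA2, an actin, which averaged 44.5 CPM at the high dose and 52.2 CPM at the low dose. ACTA2 and PDGFRB, with adjusted p of 0.0669 and 0.0706 in edgeR's test, passed with DESeq2 and with library slopes as covariates. The summed level of 10 bile duct markers was 1081, 1163 and 1177 CPM in the high-dose libraries, against 1089, 1060 and 1025 CPM in the low-dose libraries, with overlap. SPP1, osteopontin, the member with the highest level, did not pass the test, at 536, 611 and 612 CPM at the high dose, against 489.9, 484 and 459 CPM at the low dose (0.30 ± 0.11, adjusted p = 0.126). It passed with the 6 libraries alone, with no filter on low counts and with library slopes as covariates. Of the 5 bile duct markers tested, none was higher and KRT19, a keratin, was lower (-0.28 ± 0.06, adjusted p = 0.0011). The part of these markers in the results was not tested. In such bulk samples fewer cells of a type and less RNA per cell cannot be told apart. The mitochondrially encoded mRNAs made up 10.1 ± 0.992% of counts at the high dose and 9.11 ± 2.08% at the low dose (SD, n = 3 each), with an exact permutation p of 0.4. Structured noncoding RNAs made up 2.89 ± 0.00472% of counts at the high dose and 2.66 ± 0.138% at the low dose, without overlap (exact permutation p = 0.1), and the part of this in the results was not tested. The smallest p that 3 against 3 libraries allow is 0.1. The library of low dose replicate 2 stood a little apart, with long transcripts counted less: its slope of log2 level on doubling of transcript length was -0.091, against slopes between -0.004 and 0.016 in the high-dose libraries and of -0.028 and 0.015 in the other low-dose libraries.

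The high dose changed many genes by small amounts and few by large ones. Of 16517 genes tested, 203 were higher at the high dose than at the low dose (1.23%) and 446 were lower (2.7%) in edgeR's quasi-likelihood test with an adjusted p below 0.05. The median change of the called genes was 0.27 on the log2 scale among those higher, 1.21-fold, and -0.27 among those lower, 1.2-fold. A change of at least 2-fold was called for 9 higher and 17 lower genes, and of these only CYP1A1 and AKR1B10, both higher, averaged 5 CPM (counts per M counts of the scaled library) or more in either group. The 3 high-dose libraries lay above all 3 low-dose libraries for 10.5% of all genes and below them for 11.9%. Called higher genes had a median longest transcript of 4900 bases, against 3226 bases for called lower genes and 3094 bases for genes not called. With the slopes of each library on transcript length and GC content added to the fit, an alternative chosen after seeing the data, 625 genes were higher and 1020 lower. Leaving out high dose replicate 2 left 105 higher and 268 lower genes, leaving out high dose replicate 3 left 125 higher genes, and leaving out low dose replicate 2 left 89 higher genes.

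**Figure D1:**
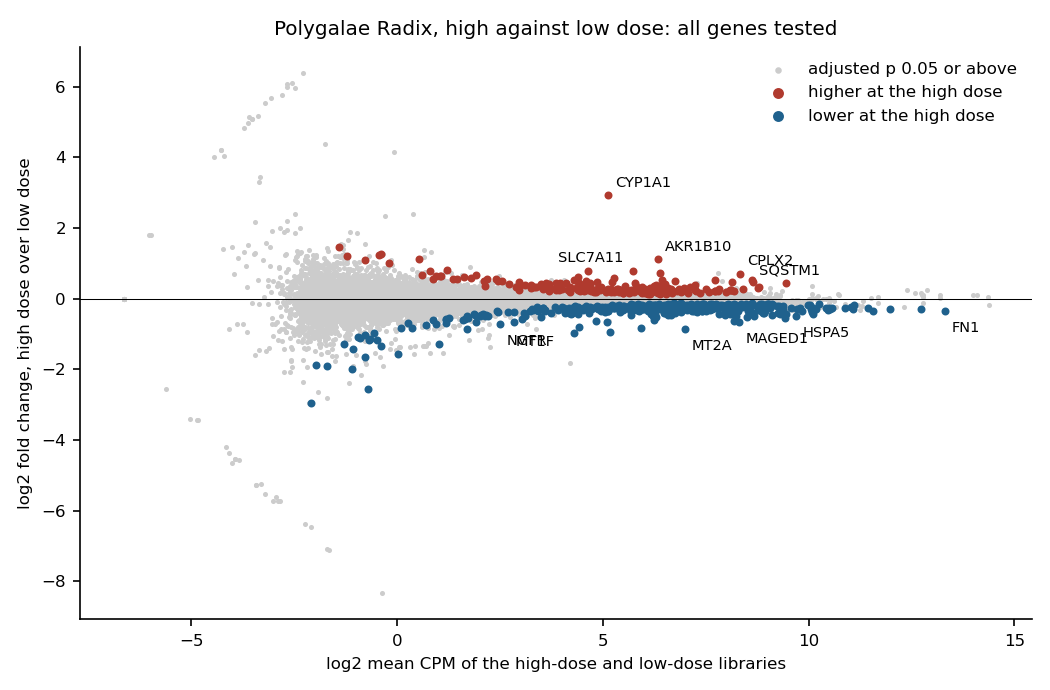
Each point is 1 of the 16517 genes tested, with its mean level over the high-dose and low-dose libraries (log2 CPM, x axis) and its log2 fold change, high dose over low dose (y axis); red points are the 203 called higher and blue points the 446 called lower. CYP1A1 stands alone at 2.94 among the genes of moderate level, and most called genes lie within 1 log2 unit of 0.

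CYP1A1 (chr15:74719542-74725610, GRCh38, minus strand) stood out. It had 58.7, 67 and 60.5 CPM in the high-dose libraries, against 8.13, 7.64 and 8.60 CPM in the low-dose libraries. All high-dose libraries lay far above all low-dose libraries, the difference was 2.94 ± 0.09 on the log2 scale (SE) or 7.65-fold, and the adjusted p was 6.15e-30. The vehicle libraries had 7.15, 7.20 and 7.24 CPM, just below the low dose, and the medium-dose libraries 10.9, 10.2 and 11.6 CPM, just above it. Most of the difference thus lay between 90 and 450 µg/mL. Of the 7 tested genes of the aryl hydrocarbon receptor list, CYP1A1 and NQO1 rose (1.23% of all genes did) and none fell (2.7% did). The list's median was 0.32 against 0.00 over all genes. NQO1 is also named below among the NRF2 targets. The receptor gene AHR itself had 45.8 CPM at the high dose and 39.8 CPM at the low dose, with an adjusted p of 0.111.

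The 250 bases before the CYP1A1 start are shown because this gene carries the largest change; the stretch is RefSeq's, GRCh38.p14, chr15:74725529-74725778, minus strand, 5′ to 3′, with the one match to the core of the xenobiotic response element, GCGTG on either strand, in capitals.
CYP1A1: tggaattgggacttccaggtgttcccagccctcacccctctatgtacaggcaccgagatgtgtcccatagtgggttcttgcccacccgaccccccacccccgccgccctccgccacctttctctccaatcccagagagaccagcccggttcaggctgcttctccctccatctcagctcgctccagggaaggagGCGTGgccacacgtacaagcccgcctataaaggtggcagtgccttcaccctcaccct
The match begins 57 bases before the start. The same letters stand on either strand in 32.2% of all 35116 promoter windows of this length, so the match is a description only.

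NRF2 target genes rose together. Of 29 tested, 16 were higher at the high dose (1.23% of all genes were), none was lower, and their median change was 0.32. The call count stayed at 16 with any single library left out. AKR1B10 (chr7:134527592-134541408), an aldo-keto reductase of reactive aldehydes, led the list with 109.8, 106 and 117 CPM at the high dose, against 48.6, 54.4 and 51.1 CPM at the low dose, a change of 1.11 ± 0.05 (adjusted p = 1.52e-21). SLC7A11 (chr4:138164097-138242349), the cystine importer that feeds glutathione synthesis, had 64.4, 72.1 and 65.5 CPM at the high dose, against 37.2, 37.9 and 42 CPM at the low dose (0.79 ± 0.08, adjusted p = 2.61e-09). For both genes the 3 high-dose libraries stood above all low-dose, medium-dose and vehicle libraries.

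The enzymes of glutathione synthesis moved with the importer. GCLC, the catalytic subunit of glutamate-cysteine ligase, averaged 102 ± 2.09 CPM at the high dose and 70.7 ± 0.9 CPM at the low dose (SD, n = 3 each; log2 change 0.53 ± 0.06, adjusted p = 1.28e-09). GCLM (chr1:93885205-93909456, minus strand), its modifier subunit, had 45.1, 47 and 46 CPM at the high dose, against 30.5, 30.5 and 31.4 CPM at the low dose (0.58 ± 0.08, adjusted p = 6.27e-07). GSR, which recycles oxidised glutathione and was named after its value was seen, changed by 0.28 ± 0.04. The export pumps ABCC2 and ABCC3, which carry glutathione and glucuronide conjugates out of the cell, changed by 0.53 ± 0.04 and 0.32 ± 0.05, and ABCC2 averaged 464 ± 5.52 CPM at the high dose and 321 ± 14.9 CPM at the low dose.

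In the thioredoxin arm TXNRD1, thioredoxin reductase, averaged 249 ± 6.50 CPM at the high dose and 172 ± 3.47 CPM at the low dose (0.53 ± 0.06, adjusted p = 4.46e-09), and SRXN1, which repairs oxidised peroxiredoxins, averaged 127 ± 3.11 CPM at the high dose and 89.8 ± 2.62 CPM at the low dose (0.50 ± 0.05). OSGIN1, an oxidative stress-induced growth inhibitor, changed by 0.73 ± 0.07 (adjusted p = 3.36e-11). NQO1, the quinone reductase, had 489, 495 and 506 CPM at the high dose, against 389.5, 415 and 387 CPM at the low dose, so the groups did not overlap although the change was only 0.32 ± 0.04. AKR1C1 and AKR1C2 changed by 0.43 ± 0.06 and 0.48 ± 0.07, but they are near-identical copies whose reads the counting may have split. PTGR1, which reduces unsaturated ketones, changed by 0.42 ± 0.09 at 14.8 CPM against 11.1 CPM, UGDH, which makes UDP-glucuronate, by 0.27 ± 0.05, and NMRAL2P, a transcribed pseudogene, by 0.80 ± 0.18; the last pair was named after the values were seen.

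Other NRF2 targets did not pass the test. HMOX1, which degrades heme, had 67.2, 67.3 and 67.7 CPM at the high dose, against 58.6, 63.5 and 59.9 CPM at the low dose (0.15 ± 0.06, adjusted p = 0.227). The ferritin subunits FTL and FTH1 and thioredoxin TXN had changes of 0.25 ± 0.15, 0.11 ± 0.17 and 0.08 ± 0.15. The pentose phosphate enzymes PGD and TKT had changes of -0.10 ± 0.04 and -0.08 ± 0.04, with adjusted p of 0.135 and 0.308. FTL, FTH1, TXN, PGD and TKT were named after their values were seen.

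GCLM serves as the example of an NRF2 target with the core of the antioxidant response element, TGACNNNGC on either strand, close to its start; the 250 bases before the start are RefSeq's, GRCh38.p14, chr1:93909431-93909680, minus strand, 5′ to 3′, with the fixed letters of the match, on the opposite strand, in capitals.
GCLM: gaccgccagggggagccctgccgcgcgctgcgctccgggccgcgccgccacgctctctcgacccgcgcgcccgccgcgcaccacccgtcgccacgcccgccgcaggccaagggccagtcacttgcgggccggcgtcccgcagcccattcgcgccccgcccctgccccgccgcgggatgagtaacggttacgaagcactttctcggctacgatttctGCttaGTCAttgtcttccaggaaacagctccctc
The core stood in the windows of 4 of the 19 tested list members that have one, and of 2 of the 11 called members that have one, against 10.9% of all 35116 windows.

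SQSTM1 (chr5:179806398-179838078), the autophagy receptor p62, which NRF2 also controls, had 467, 457 and 473 CPM at the high dose, against 335, 352 and 331 CPM at the low dose (0.46 ± 0.04, adjusted p = 4.91e-12). The medium dose, with 331, 318 and 347 CPM, overlapped the low dose, and the vehicle had 187, 203 and 201 CPM. Thus the high dose stood apart from both lower doses, and these stood apart from the vehicle, a step that the code set cannot be told apart from.

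**Figure D2:**
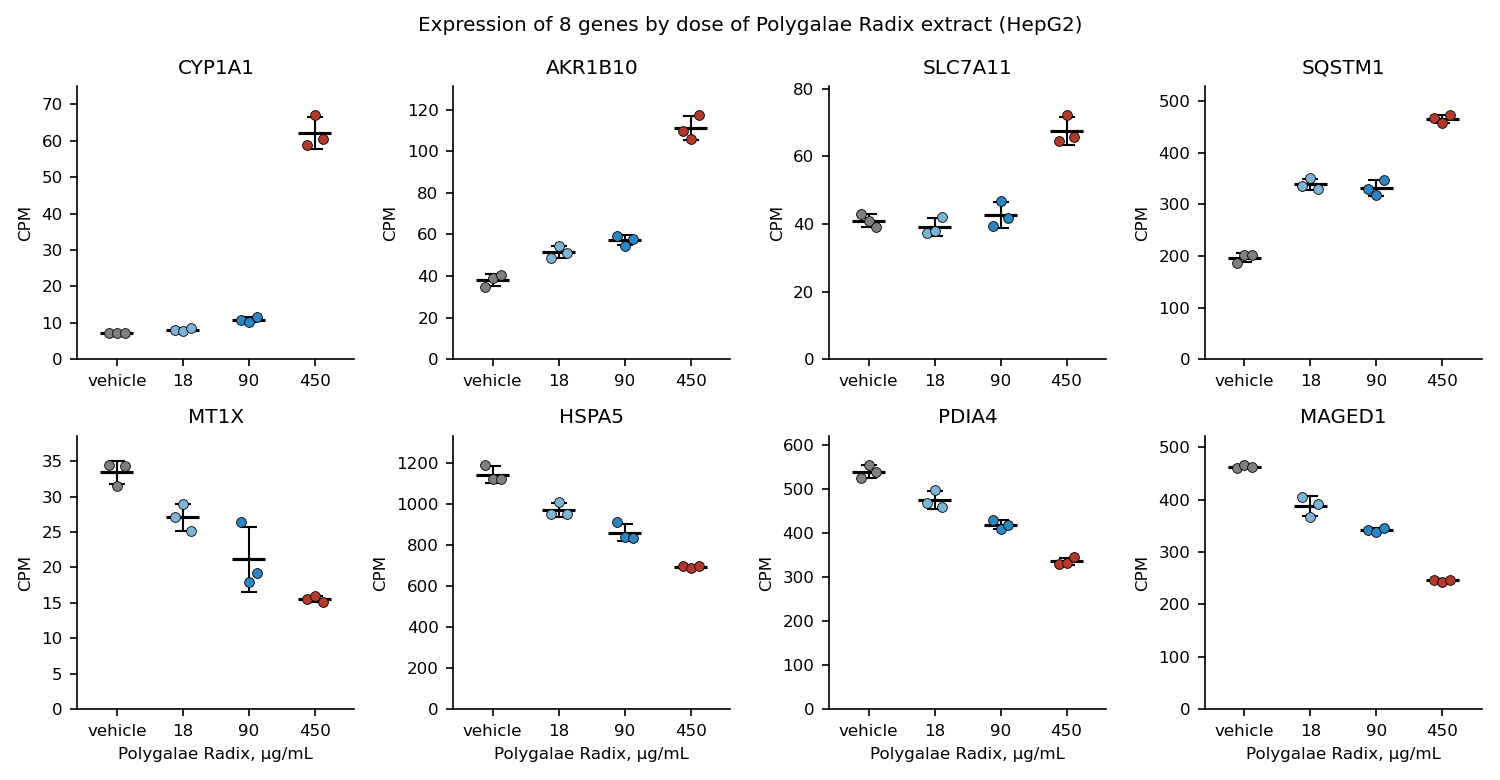
CPM of 8 genes in each library (points) with mean and SD (bars) for vehicle and Polygalae Radix at 18, 90 and 450 µg/mL, 3 libraries each. CYP1A1, AKR1B10, SLC7A11 and SQSTM1 step up at 450 µg/mL, while HSPA5, PDIA4 and MAGED1 are lower at each higher dose and MT1X spreads widely at 90 µg/mL.

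Some amino acid stress genes under ATF4 rose. Of 28 tested, 7 were higher (1.23% of all genes were) and 2 lower (2.7% were), with a median of 0.14. Among the higher ones was SLC7A11, also named above with the NRF2 targets, at 0.79 the largest value of the list. With single libraries left out 3 to 6 were higher and 0 to 2 lower. The higher count was 3 without high dose replicate 2 or low dose replicate 1 and 4 without high dose replicate 3 or low dose replicate 3; the lower count was 0 without high dose replicate 1 or 2 or low dose replicate 2 and 1 without high dose replicate 3 or low dose replicate 1. MTHFD2, of mitochondrial folate metabolism, averaged 106 ± 0.486 CPM at the high dose and 89.1 ± 4.75 CPM at the low dose (0.24 ± 0.05, adjusted p = 0.000508), and STC2, a secreted glycoprotein, changed by 0.24 ± 0.05. ATF4 itself and DDIT3, a factor it induces, had changes of 0.14 ± 0.09 and 0.03 ± 0.14, with adjusted p of 0.491 and 0.966. DDIT4, an inhibitor of mTORC1, and NUPR1, a stress-induced chromatin protein, were among the 14 largest rises at 0.50 and 0.60, but with single libraries left out the adjusted p ran from 0.0443 to 0.225 for DDIT4 and from 0.0144 to 0.102 for NUPR1. Both calls ended without high dose replicate 2 or 3 or low dose replicate 1, that of DDIT4 also without low dose replicate 2 and that of NUPR1 also without low dose replicate 3.

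Genes outside the stress lists rose as well. CPLX2 (chr5:175796310-175884020), a complexin that binds the SNARE complex in vesicle release, had 396, 405 and 406 CPM at the high dose, against 255, 224 and 259.9 CPM at the low dose (0.71 ± 0.07, adjusted p = 4.9e-10). Its vehicle level, 316, 336 and 322 CPM, lay between the low and high doses. BMF, a BH3-only protein that promotes apoptosis, had 25.8, 22.2 and 21.4 CPM at the high dose, against 18.7, 15.2 and 14.8 CPM at the low dose (0.52 ± 0.09, adjusted p = 0.000152), and every high-dose library was above every low-dose library. AREG, an EGF receptor ligand, and H2BC21, a histone gene, changed by 0.55 ± 0.13 and 0.54 ± 0.15 at mean levels of 6.27 and 5.35 CPM at the high dose, and with single libraries left out the adjusted p ran from 0.00722 to 0.0744 for AREG and from 0.0157 to 0.138 for H2BC21. The call of AREG ended without high dose replicate 3 or low dose replicate 1, and that of H2BC21 without high dose replicate 1 or 2 or low dose replicate 2 or 3. HNF4A, a master factor of the hepatocyte, changed by 0.29 ± 0.07 (adjusted p = 0.00577), but without low dose replicate 2 the adjusted p was 0.0841.

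Metallothioneins showed the largest falls among called protein-coding genes of at least 5 CPM. Of 13 tested genes of metallothioneins and zinc transport, 6 fell (2.7% of all genes did) and 1 rose (1.23% did). The median was -0.74. The 6 were MT1E, MT1F, MT1G, MT1M, MT1X and MT2A, all of the gene cluster on chromosome 16, and 5 of them were among the 14 largest falls. MT1X (chr16:56682424-56684196) had 15.6, 16 and 15.1 CPM at the high dose, against 27.1, 29 and 25.1 CPM at the low dose (-0.80 ± 0.13, adjusted p = 5.23e-05). MT1F had 12.1, 14.5 and 13.2 CPM at the high dose, against 30.9, 26.1 and 22 CPM at the low dose (-0.99 ± 0.20, adjusted p = 0.000869). In both, the high-dose libraries were tightly grouped below all 3 low-dose libraries.

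MT2A (chr16:56608199-56609497) had 80.9, 98.1 and 91.7 CPM at the high dose, against 179, 177 and 138 CPM at the low dose (-0.87 ± 0.23, adjusted p = 0.0167), and MT1G and MT1E changed by -0.95 ± 0.22 and -0.83 ± 0.21. MT1M, named after its value was seen, stood at 0.272 CPM at the high dose and 0.866 CPM at the low dose. With single libraries left out, the adjusted p of MT2A ran from 0.0146 to 0.1 and that of MT1E from 0.0118 to 0.1, both calls ending without high dose replicate 1 or 3 or low dose replicate 2, and that of MT2A also without low dose replicate 1. The number of list members called lower was then 4 to 6, 4 without high dose replicate 1 or 3 or low dose replicate 2, and 2 in a fit of the 18 libraries of code set 4 alone.

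Since these genes are near-identical copies, their sum depends less than any 1 of them on how reads were split. Metallothionein genes and pseudogenes of chromosome 16 together held 177, 199 and 191 CPM at the high dose, against 369.8, 378 and 291 CPM at the low dose, with no overlap (exact permutation p = 0.1, two-sided, the smallest possible). The medium dose spread over 337, 175 and 234 CPM and the vehicle held 422, 396 and 409 CPM. The medium-dose libraries thus overlapped the low dose and reached just below the high dose, and the library of replicate 2, with the lowest sum, was also the one whose slope on transcript length stood furthest off, at 0.167. The zinc importer SLC39A10 rose, by 0.45 ± 0.08, and the metal sensor MTF1, named after its value was seen, had a change of 0.16 ± 0.10 (adjusted p = 0.484).

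Of the falling metallothioneins, MT1X and MT2A have RefSeq promoter windows with several matches to the core of the metal response element, TGCNCNC on either strand, and these are shown to place the matches; both stretches are the 250 bases before the start on the plus strand of GRCh38.p14, 5′ to 3′, MT1X at chr16:56682220-56682469 and MT2A at chr16:56608334-56608583, with the fixed letters of each match in capitals.
MT1X: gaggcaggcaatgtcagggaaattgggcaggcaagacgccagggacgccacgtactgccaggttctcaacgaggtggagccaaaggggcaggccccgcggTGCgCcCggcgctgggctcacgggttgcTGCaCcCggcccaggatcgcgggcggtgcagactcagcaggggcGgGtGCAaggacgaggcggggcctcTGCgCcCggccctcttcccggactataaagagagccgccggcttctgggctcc
MT2A: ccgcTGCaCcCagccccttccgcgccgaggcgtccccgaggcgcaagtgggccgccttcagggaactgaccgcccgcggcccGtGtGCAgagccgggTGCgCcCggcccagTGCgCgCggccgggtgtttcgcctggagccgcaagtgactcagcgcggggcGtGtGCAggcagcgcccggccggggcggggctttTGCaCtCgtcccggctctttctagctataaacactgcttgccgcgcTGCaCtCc
MT1X holds 4 matches and MT2A 7. RefSeq's starts lie downstream of the GENCODE v29 starts given above, so the MT1X window overlaps the gene span and the MT2A window lies inside it. The letters are short, and 49.1% of all 35116 windows hold at least 1 match, as did 5 of the 7 tested list members that have a window.

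Endoplasmic reticulum chaperones fell together. Of 20 tested genes of the list 12 were lower at the high dose (2.7% of all genes were), none was higher, and the median was -0.29; with single libraries left out, 9 to 12 were lower. HSPA5 (chr9:125234853-125241330, minus strand), the chaperone BiP, had 696, 688 and 699 CPM at the high dose, against 951, 1008 and 953 CPM at the low dose (-0.48 ± 0.04, adjusted p = 1.91e-12). The medium dose had 911, 837 and 835 CPM and the vehicle 1190, 1120 and 1120 CPM. The groups did not overlap, and each higher dose stood lower.

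PDIA4, a protein disulfide isomerase, had 330.2, 332 and 344 CPM at the high dose, against 468, 498 and 458 CPM at the low dose (-0.50 ± 0.04, adjusted p = 7.81e-12). HSP90B1, the chaperone GRP94, averaged 585 ± 4.29 CPM at the high dose and 784 ± 14.6 CPM at the low dose (-0.42 ± 0.05, adjusted p = 2.4e-07), and HYOU1, a large chaperone of the HSP70 family, 259 ± 2.62 CPM at the high dose and 346 ± 15 CPM at the low dose (-0.42 ± 0.04). CALR, the calcium-binding lectin calreticulin, named after its value was seen, averaged 950.2 ± 40.3 CPM at the high dose and 1224 ± 14.1 CPM at the low dose (-0.36 ± 0.06). The factor XBP1, also named after its value was seen, did not pass the test, at 0.16 ± 0.09 (adjusted p = 0.422). Summed over all 20 genes, the list held 5299 ± 38.8 CPM at the high dose and 6557 ± 50.3 CPM at the low dose (SD, n = 3 each, exact permutation p = 0.1), and 7457 ± 148 CPM in the vehicle.

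HSPA5, HSP90B1 and CALR are shown because their promoter windows hold the endoplasmic reticulum stress response element, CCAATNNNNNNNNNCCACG on either strand, a motif added to the search after the values of these genes were seen; its first 5 letters are also a CCAAT box. Each line is the 250 bases before the start, RefSeq's, GRCh38.p14, 5′ to 3′ on the strand of the gene, with the fixed letters of each match in capitals, HSPA5 at chr9:125241344-125241593 on the minus strand, HSP90B1 at chr12:103930160-103930409 and CALR at chr19:12938359-12938608 on the plus strand.
HSPA5: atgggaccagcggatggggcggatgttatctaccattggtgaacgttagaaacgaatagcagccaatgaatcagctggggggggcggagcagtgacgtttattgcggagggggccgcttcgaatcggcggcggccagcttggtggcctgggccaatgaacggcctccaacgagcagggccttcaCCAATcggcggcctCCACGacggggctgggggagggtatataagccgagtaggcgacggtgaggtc
HSP90B1: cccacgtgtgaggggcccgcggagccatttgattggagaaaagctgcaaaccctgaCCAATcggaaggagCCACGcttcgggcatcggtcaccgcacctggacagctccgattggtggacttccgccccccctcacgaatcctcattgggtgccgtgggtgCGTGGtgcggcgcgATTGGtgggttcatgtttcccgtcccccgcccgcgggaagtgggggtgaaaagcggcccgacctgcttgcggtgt
CALR: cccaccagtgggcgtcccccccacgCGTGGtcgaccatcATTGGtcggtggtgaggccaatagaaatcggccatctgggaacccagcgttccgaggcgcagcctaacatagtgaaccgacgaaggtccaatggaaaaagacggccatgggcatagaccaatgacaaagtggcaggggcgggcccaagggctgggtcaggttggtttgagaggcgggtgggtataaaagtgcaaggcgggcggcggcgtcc
HSP90B1 holds 2 matches, one on each strand, and HSPA5 and CALR 1 each. The element stood in 7 of the 19 tested list members with a window and in 5 of the 11 called members with one, against 26 of all 35116 windows, 0.074%. Since the element was added to the search for these genes, the counts are a description only.

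Secreted liver proteins, the cargo of that compartment, fell in part as well (2.7% of all genes were lower and 1.23% higher). Of 27 tested plasma protein genes, 11 were lower and none higher, with a median of -0.26; with single libraries left out 6 to 8 were lower, 6 without high dose replicate 1 or 2 or low dose replicate 1 and 7 without high dose replicate 3, and in a fit of the 18 libraries of code set 4 alone 5 were lower. ITIH2, a chain of the inter-alpha-trypsin inhibitor, had 909.9, 951 and 949 CPM at the high dose, against 1256, 1241 and 1273 CPM at the low dose (-0.42 ± 0.04, adjusted p = 3.62e-10). VTN, vitronectin, and HPX, hemopexin, changed by -0.47 ± 0.08 and -0.51 ± 0.10, F2, prothrombin, by -0.34 ± 0.05, and TF, transferrin, by -0.25 ± 0.05. ALB, albumin, had 6077, 6224 and 6101 CPM at the high dose, against 7207, 7834 and 7348 CPM at the low dose (-0.28 ± 0.09, adjusted p = 0.0478), but its adjusted p ran from 0.0712 to 0.234 with single libraries left out, and each omission ended the call. The sum over 28 plasma protein genes was 44910 ± 634 CPM at the high dose and 52660 ± 3730 CPM at the low dose (exact permutation p = 0.1). Of 16 acute phase and complement genes 5 were lower, among them complement C3 at -0.29 ± 0.04 and complement factor CFB at -0.33 ± 0.04, and 1 was higher, a call that ended without high dose replicate 1.

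**Figure D3:**
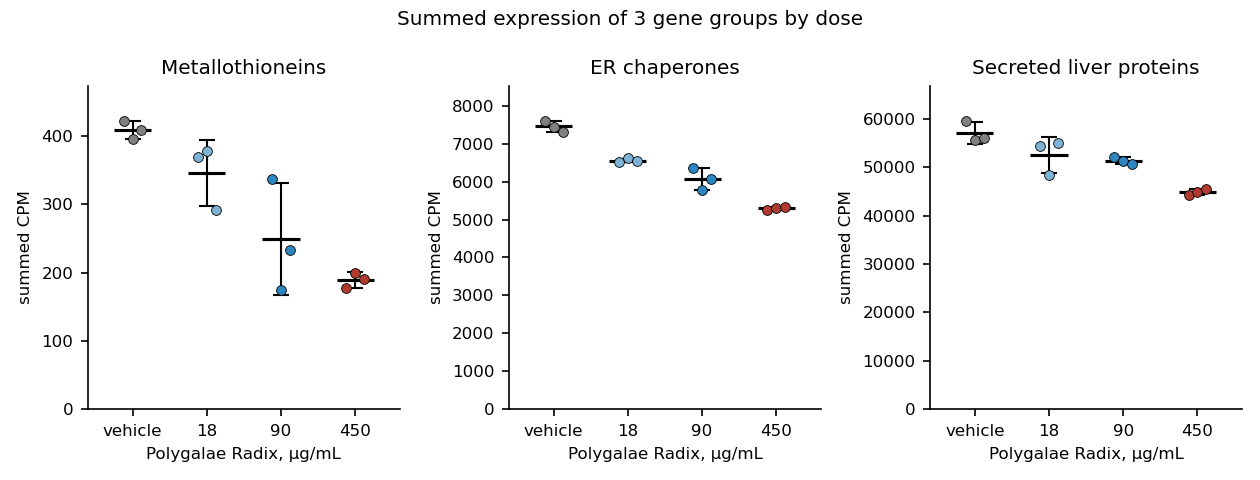
Summed CPM of the metallothionein genes and pseudogenes of chromosome 16, of 20 endoplasmic reticulum chaperone genes and of the plasma protein genes, by library (points) with mean and SD (bars), for vehicle and Polygalae Radix at 18, 90 and 450 µg/mL. The 450 µg/mL libraries lie below all 18 µg/mL libraries in each panel.

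MAGED1 (chrX:51803007-51902357), an adaptor of the neurotrophin receptor and of apoptosis signalling, gave the fall with the smallest p: it had 247, 243 and 247 CPM at the high dose, against 405, 367 and 392 CPM at the low dose (-0.66 ± 0.04, adjusted p = 2.07e-17). Its medium-dose libraries had 342, 338 and 346 CPM and its vehicle libraries 460.5, 466 and 463 CPM, so each group stood below the one with less extract, without overlap. Its paralogue MAGED2 changed by -0.61 ± 0.05 (adjusted p = 3.71e-13), and the neurotrophin receptor gene NGFR, to whose product MAGED1 binds, by -0.72 ± 0.12 at 4.29 CPM at the high dose and 7.08 CPM at the low dose. UBA7, the activating enzyme of ISG15, changed by -0.66 ± 0.08, and TGM2, a transglutaminase that crosslinks proteins, by -0.64 ± 0.06. MATN3, an extracellular matrix protein, averaged 63.9 ± 1.82 CPM at the high dose and 91.8 ± 3.19 CPM at the low dose (-0.52 ± 0.06).

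Cytoskeletal genes fell in part (2.7% of all genes were lower). Of 27 tested genes of the actin cytoskeleton and SRF list 9 were lower and none higher, and 8 to 9 were lower with single libraries left out. MYH9, non-muscle myosin heavy chain, had 567, 551 and 566 CPM at the high dose, against 806, 786 and 865 CPM at the low dose (-0.54 ± 0.09, adjusted p = 9.43e-05). SPTAN1, spectrin of the membrane skeleton, changed by -0.64 ± 0.07, TNS4, a tensin of focal adhesions, by -0.66 ± 0.08, and FN1, fibronectin, by -0.36 ± 0.05. The keratins KRT8 and KRT18, partners in the filaments of simple epithelium, changed by -0.36 ± 0.05 and -0.35 ± 0.05; their gene models overlap on opposite strands, and the strand setting of the counting is not given in the sources used here. For MYH9 the medium-dose libraries spread over 734, 982 and 854 CPM, and the highest of them, replicate 2, was also the library with the length slope of 0.167.

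Cell cycle genes fell in part (2.7% of all genes were lower). Of 22 tested genes of G2 and M phase 9 were lower and none higher, with a median of -0.19; with single libraries left out 5 to 9 were lower, 5 without high dose replicate 1 or 2 or low dose replicate 2. TOP2A, topoisomerase of mitotic chromosomes, had 388, 418 and 411 CPM at the high dose, against 499.5, 499 and 545 CPM at the low dose (-0.34 ± 0.05, adjusted p = 2.69e-06). CDC20, activator of the anaphase-promoting complex, changed by -0.35 ± 0.06, TPX2, a spindle assembly factor, by -0.25 ± 0.05, and PLK1, a mitotic kinase, by -0.25 ± 0.06, but without high dose replicate 1 the adjusted p of PLK1 was 0.0713. Of 24 DNA replication genes 5 were lower, led in size by MCM2, of the replicative helicase, at -0.28 ± 0.07, whose adjusted p was 0.0647 without high dose replicate 2. With single libraries left out 2 to 5 of the replication genes were lower, 2 without low dose replicate 2 and 3 without any 1 high-dose library.

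Genes of energy metabolism fell in part (2.7% of all genes were lower). Of 21 genes of glucose uptake and glycolysis 6 were lower and none higher. Over the vehicle the median of this list was 0.16 at the high dose and 0.32 at the low dose, with code sets crossed. SLC2A1, the glucose transporter GLUT1, had 595, 579 and 594 CPM at the high dose, against 724, 741 and 747 CPM at the low dose (-0.32 ± 0.04, adjusted p = 1.11e-07), while the vehicle had 592, 636 and 651 CPM and so overlapped the high dose. PKM, pyruvate kinase, changed by -0.29 ± 0.04. Of 24 nuclear-coded respiratory chain genes 6 were lower and none higher, with SDHA, of succinate dehydrogenase, at -0.34 ± 0.04 and ATP5F1A, of ATP synthase, at -0.35 ± 0.04. The median of this list over the vehicle was 0.06 at the high dose and 0.23 at the low dose. HSP90AB1, of the 20 cytosolic heat shock chaperones of which 6 were lower, changed by -0.28 ± 0.04; 4 were lower without high dose replicate 1 or 2 or low dose replicate 2.

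Some genes of fatty acid metabolism and membrane repair fell (2.7% of all genes were lower and 1.23% higher). Of 14 genes of fatty acid synthesis and desaturation 2 were lower and none higher. With single libraries left out 1 to 3 of these were lower. Of 16 genes of fatty acid oxidation and ketone synthesis 3 were lower and none higher. HADHA, a subunit of the mitochondrial trifunctional protein of long-chain fatty acid oxidation, had 224, 219.5 and 226 CPM at the high dose, against 272, 301 and 292 CPM at the low dose (-0.37 ± 0.04, adjusted p = 1.09e-10), and HADHB, its partner subunit, changed by -0.26 ± 0.04; their gene models also overlap on opposite strands. FASN, fatty acid synthase, had 2551, 2505 and 2590 CPM at the high dose, against 3205, 3057 and 3301 CPM at the low dose, a difference of -0.32 ± 0.11 that did not pass the test (adjusted p = 0.0908). It passed with DESeq2, with the 6 libraries alone with and without a replicate block, with no filter on low counts and with the library slopes, at log2 values between -0.36 and -0.32. Of 17 genes of membrane repair 3 were lower and none higher. ANXA6 and ANXA5, annexins that bind membranes through calcium, changed by -0.46 ± 0.04 and -0.32 ± 0.06, and ANXA6 averaged 85 ± 1.46 CPM at the high dose and 117 ± 4.45 CPM at the low dose. MAT1A, which makes S-adenosylmethionine in liver, was the one higher gene of 20 of the urea cycle and amino acid breakdown, at 0.22 ± 0.05, and 3 of these were lower, a count that was 0 without high dose replicate 2 and 1 without high dose replicate 1 or 3 or low dose replicate 2.

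Some lists gave no call. None of 20 cholesterol synthesis enzymes, 22 p53 targets, 23 cytosolic ribosomal protein genes or 13 mitochondrially encoded mRNAs passed edgeR's test in either direction. Over all genes 3.93% passed it, so a list of this size can hold no call without differing from them. All 23 ribosomal protein genes had values below 0, from -0.18 to -0.03 with a median of -0.12. In only 2 of them did all high-dose libraries lie below all low-dose libraries, as they did for 11.9% of all genes. Of the 20 cholesterol enzymes 8 lay above 0, and the median of that list was -0.04. HMGCS1, an early enzyme of the mevalonate pathway, had a change of 0.01 ± 0.05 (adjusted p = 0.973). Over all 45 lists, 23 held more lower than higher calls, 8 more higher than lower calls and 10 no call.

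**Figure D4:**
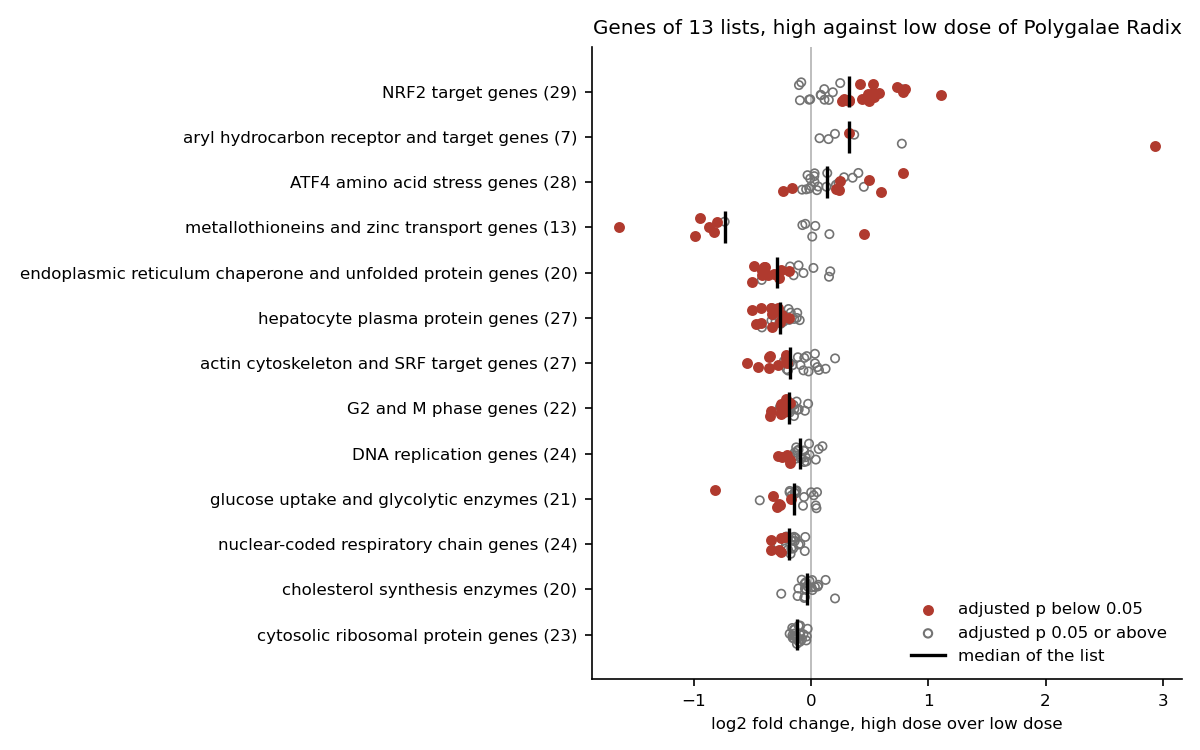
Log2 fold change, high dose over low dose, of every tested member of 13 gene lists (points; number tested in parentheses), filled where the adjusted p was below 0.05, with the list's median as a bar. NRF2 targets lie to the right, metallothioneins and endoplasmic reticulum chaperones to the left, cholesterol enzymes lie on both sides of 0 and ribosomal proteins between -0.18 and -0.03, both with no call.

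Fewer genes were called between the medium and low doses than between the high and medium doses, an order that turned without 1 library and without a filter. Medium against low dose called 44 genes higher (0.266%) and 60 lower (0.363%), and high against medium dose called 141 higher (0.854%) and 354 lower (2.14%). Both comparisons share the medium-dose libraries. Medium against low dose rested on single libraries: it called 0 higher and 1 lower gene without medium dose replicate 2, 0 higher and 2 lower without low dose replicate 2, 12 higher and 38 lower without low dose replicate 1, and 404 higher and 690 lower without medium dose replicate 1, where high against medium dose called 234 and 434. With no filter on low counts medium against low dose called 356 and 556, where high against medium dose called 243 and 432. In medium against low dose 129 genes were lower without low dose replicate 3 and 38 without medium dose replicate 3. High against medium dose called 69 higher and 158 lower genes without medium dose replicate 2, and 85 to 88 higher and 184 to 222 lower without any 1 high-dose library. The NRF2 list had no call between the medium and low doses, at a median of 0.00, and 16 higher calls between the high and medium doses. The chaperone list had 3 lower calls between the medium and low doses and 7 between the high and medium doses. Of the genes called between high and low dose, the medium mean lay between both for 164 of 203 higher and 362 of 446 lower. Among genes not called it lay between both means for 4691 of 15868. Genes called for a wide gap hold the medium mean within it more readily, so these counts alone do not show a graded response. The median called gene had covered 38.2% (higher) and 35.4% (lower) of its log2 change at the medium dose. The low-dose libraries enter both sides of this ratio.

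Set against the vehicle, the high dose called 1685 genes higher (10.2%) and 1641 lower (9.94%), and the low dose 1426 higher (8.63%) and 1158 lower (7.01%). These comparisons share the vehicle libraries and cross code sets, so code set and extract cannot be told apart in either. Without vehicle replicate 1 the high dose called 1069 higher genes and the low dose 636 higher and 550 lower, and without low dose replicate 2 the low dose called 728 higher and 473 lower. In the NRF2 list the median was 0.43 for the high dose over vehicle and 0.11 for the low dose over vehicle, and in the chaperone list -0.37 and -0.17. In the plasma protein list it was -0.23 and 0.03.

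Aucklandiae Radix, the root of another plant of which the high and low doses also differ 25-fold, allowed a test of which dose differences are larger under one extract, although the doses in µg/mL differ. The interaction of edgeR's model called 435 genes with a higher (2.63%) and 691 with a lower (4.18%) log2 dose difference under Polygalae Radix than under Aucklandiae Radix. The library of Aucklandiae low dose replicate 1 stood apart, with a length slope of -0.112, against 0.04 and -0.001 in replicates 2 and 3. Without it 376 genes were higher and 592 lower. CYP1A1 stood out upward: it averaged 62.1 CPM at the high and 8.12 CPM at the low dose of Polygalae Radix, against 16.3 CPM and 7.52 CPM for Aucklandiae Radix, an interaction of 1.82 ± 0.13 (adjusted p = 7.95e-15). NRF2 targets went the other way, with 19 of 29 lower and 1 higher in the interaction. PTGR1 averaged 14.8 and 11.1 CPM at the high and low doses of Polygalae Radix, against 71.7 and 13.8 CPM for Aucklandiae Radix, an interaction of -1.95 ± 0.12 (adjusted p = 6.77e-16). AKR1C1, AKR1C2, AKR1B10 and ABCC3 had interactions of -1.22 ± 0.08, -1.33 ± 0.10, -0.70 ± 0.07 and -0.95 ± 0.08, so each had the same sign under both extracts and a smaller size under Polygalae Radix.

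Some genes had opposite signs under the 2 extracts, and others changed mainly under Aucklandiae Radix. The Aucklandiae dose difference was not tested by itself. MBL2, mannose-binding lectin of plasma, averaged 16.8 CPM at the high and 12.4 CPM at the low dose of Polygalae Radix, against 7.20 CPM and 13.6 CPM for Aucklandiae Radix (interaction 1.35 ± 0.13, adjusted p = 2.12e-10). BMF had an interaction of 1.08 ± 0.14 (adjusted p = 1.58e-07). CKAP4, an endoplasmic reticulum membrane protein, averaged 79.5 and 104 CPM at the high and low doses of Polygalae Radix, against 129.5 and 106 CPM for Aucklandiae Radix (interaction -0.69 ± 0.06, adjusted p = 5.6e-12). CAPN2, a calpain protease, had an interaction of -0.90 ± 0.07, while its Polygalae dose difference of -0.22 ± 0.05 was called with all libraries but had an adjusted p of 0.138 without high dose replicate 2 and 0.0518 without low dose replicate 1. SLC6A14, an amino acid transporter, and ELOVL6, a fatty acid elongase, did not pass the test under Polygalae Radix, with Polygalae changes of -0.02 ± 0.07 and 0.07 ± 0.04 and Aucklandiae changes of -1.05 and -0.55. ARSI, an arylsulfatase, changed by -0.26 ± 0.07 under Polygalae Radix and by -1.15 under Aucklandiae Radix, and its Polygalae call ended without high dose replicate 1 or 2 or low dose replicate 2 or 3, at adjusted p up to 0.147.

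In the G2 and M phase list 17 of 22 genes had a higher dose difference under Polygalae Radix than under Aucklandiae Radix. That is, their fall was smaller, and no gene of the list had a lower dose difference. Over all genes 2.63% had a higher and 4.18% a lower one. TOP2A averaged 406 and 514 CPM at the high and low doses of Polygalae Radix, against 351 and 579 CPM for Aucklandiae Radix (interaction 0.38 ± 0.07, adjusted p = 0.000158). In the chaperone list 6 of 20 were lower and none higher, with PDIA4 at -0.42 ± 0.06 and HSPA5 at -0.19 ± 0.06. For the metallothioneins MT1X, MT1F and MT2A the interaction was 0.55 ± 0.19, 0.59 ± 0.29 and 0.46 ± 0.32, with adjusted p from 0.0754 to 0.489, which does not show that both extracts lower them alike.

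**Figure D5:**
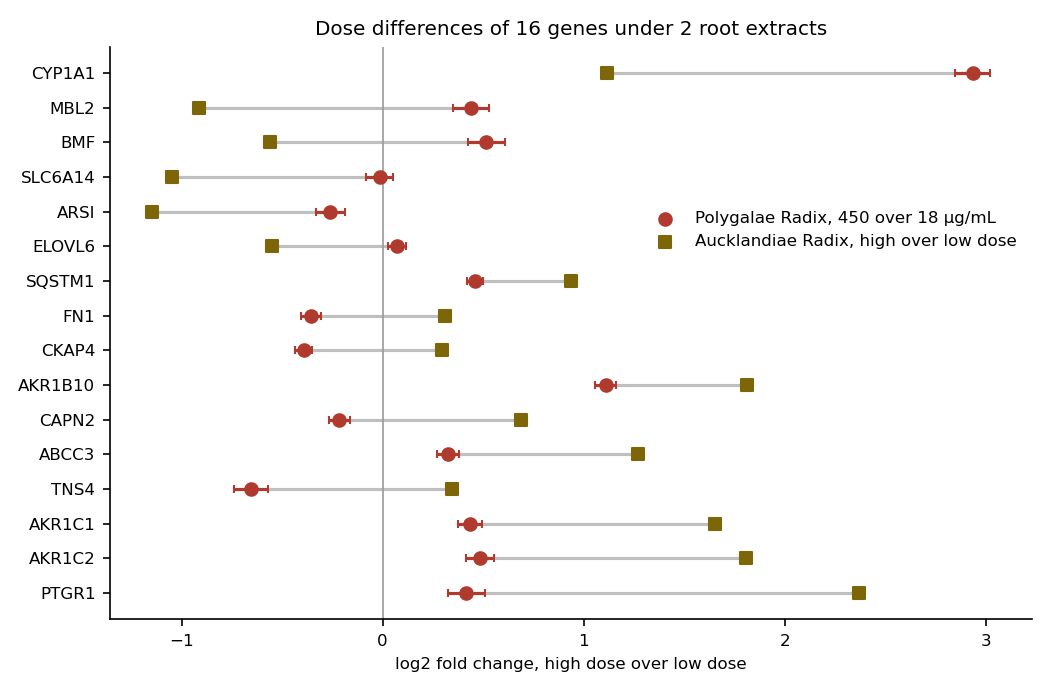
Log2 fold change, high dose over low dose, of 16 genes under Polygalae Radix (red circles, with SE) and Aucklandiae Radix (brown squares, no error drawn), ordered by the difference. CYP1A1 at the top lies further right for Polygalae Radix, PTGR1, AKR1C2 and AKR1C1 at the bottom for Aucklandiae Radix. MBL2, BMF, FN1, CKAP4, CAPN2 and TNS4 have opposite signs, as does ELOVL6, which did not pass the test under Polygalae Radix.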

How the data were processed

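Gene-level expression of HepG2 cells was read from 1 table of the series holding expected counts for 60675 genes in 60 libraries. Per the submitters' processing notes the authors used RSEM 1.3.3 and STAR 2.7.3a, with Trim Galore 0.6.5 and FastQC 0.11.9, and the human build GRCh38, in an order not stated; expected counts are estimates that share reads between alike genes. Neither the annotation release nor the strand setting is given in the sources used here. Libraries were made from mRNA with a directional kit, per the labels' protocols, which also give an RNA integrity number above 7; per the series' design text, samples that failed for low RNA concentration were left out. The labels give 0.1% DMSO for the vehicle and the design text 2%, which could not be reconciled.

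Expected counts, as deposited, were rounded before testing. Genes were kept by edgeR's filterByExpr (16517 genes), scaled by TMM, and tested with 1 quasi-likelihood model over all 20 groups (edgeR 4.0.16, limma 3.58.1, R 4.3.3), p-values being adjusted by Benjamini and Hochberg over all genes at a threshold of 0.05. Fold changes are log2 values with SE; levels and sums are TMM-scaled CPM. Sums were compared by two-sided exact permutation tests. Totals of 21.57 M to 29.98 M counts in the high-dose and low-dose libraries limit the precision of low genes. No 2 replicates agreed within counting noise. The pipeline was tested on simulated data.

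Names came from the 14 largest rises and falls (adjusted p below 0.05, at least 5 CPM, no overlap), up to 4 genes with the smallest p per list, the 6 smallest interaction p in each direction and 27 genes fixed by name, other names being marked as chosen after their values were seen. The members, the 45 lists and the motifs were chosen with earlier results of these data known. Coordinates are of GENCODE v29 and promoter windows of RefSeq (GRCh38.p14), and their starts differ. The windows of CYP1A1, GCLM and MT1X thus overlap the gene spans given, and that of MT2A lies inside its span. A list member was counted as holding a motif if any of its windows did, while the shares over all windows count each window. Alternatives comprised other scaling (RLE), filters, DESeq2 1.42.0, fewer libraries, a replicate block, library slopes and omission of single libraries. Same-numbered high-dose and low-dose libraries did not deviate together (correlations -0.12, -0.18 and -0.04). The labels state no pairing, and these few correlations cannot exclude one. The main fit paired no libraries. Many gene models overlap one on the other strand, among them SQSTM1, PLK1, BMF and SLC7A11, and their counts are uncertain in that respect. Some genes that the naming rule picked are not reported here.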

Additional observations from a re-analysis of the deposited data

Results flagged for a closer look

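Each gene here had a high over low dose difference under Polygalae Radix that differed from the one under Aucklandiae Radix by edgeR's interaction test with an adjusted p below 0.05 over all genes, and values are the Polygalae minus the Aucklandiae difference on the log2 scale. The largest positive values were 1.82 for CYP1A1, 1.35 for MBL2, 1.08 for BMF and 1.03 for SLC6A14. The largest negative values were -1.95 for PTGR1, -1.33 for AKR1C2, -1.22 for AKR1C1 and -1.0 for TNS4.

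Further named NRF2 targets had negative values: ABCC3 -0.95, HMOX1 -0.86, AKR1B10 -0.70, GCLM -0.46, SRXN1 -0.44, TKT -0.40, TXNRD1 -0.38, OSGIN1 -0.33, NQO1 -0.29, PGD -0.26, ABCC2 -0.25 and GSR -0.20, with the autophagy receptor SQSTM1 at -0.48. Chaperones and membrane proteins of the endoplasmic reticulum gave CKAP4 -0.69, PDIA4 -0.42, HYOU1 -0.33 and HSPA5 -0.19. Genes of the cytoskeleton and matrix gave FN1 -0.67, TGM2 -0.64, MYH9 -0.58, SPTAN1 -0.55, KRT8 -0.36 and KRT18 -0.27. CAPN2 had -0.90, UBA7 -0.68, MAGED2 -0.55, MAGED1 -0.34, HPX -0.55, F2 -0.29, PKM -0.46, SLC2A1 -0.34 and ATP5F1A -0.28. Of the lipid, membrane and amino acid genes, ANXA6 had -0.64, MAT1A -0.40, HADHA -0.36 and HADHB -0.28.

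Positive values were held by ARSI at 0.89, ELOVL6 at 0.62, HMGCS1 at 0.49, PLK1 at 0.42, TOP2A at 0.38, MTHFD2 at 0.33, TPX2 at 0.24 and STC2 at 0.22.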

How the results depend on the processing

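High against low dose gave 203 higher and 446 lower genes; no named gene that passed the test reversed under any alternative run. Counts were within 1.5 times of these with RLE scaling, DESeq2, both filters, mitochondrial genes left out, and a replicate block within code sets, which called 766 genes, 635 of them among the 649. Without a filter 381 of the 649 were called (58.7% of these and 57.7% of 660) and with the 6 libraries alone 375 (57.8%, and 77.0% of 487), against 615 with DESeq2, 623 with a stricter filter, 629 without mitochondrial genes and 639 with RLE. They were 102 and 218 with the 18 libraries of code set 4, 53 and 145 with the 6 libraries alone and a replicate block, and 625 and 1020 with the library slopes, which was added after seeing the data. Single libraries left out gave 89 to 210 higher and 268 to 398 lower. Changes of at least 2-fold, 9 higher and 17 lower, were 4 and 3 with DESeq2, 40 and 74 without a filter and 3 and 1 with a stricter one; 14 were higher with slopes, and 6, 8 and 4 were lower with code set 4, the 6 libraries alone and these with a block. Single libraries left out gave 5 to 9 and 8 to 29. Medium against low dose, 44 and 60, gave 97 and 159 with DESeq2, 356 and 556 without a filter, 73 and 125 with the replicate block, and 22 higher with a stricter filter and 16 with slopes; single libraries left out gave 0 to 404 and 1 to 690. High against medium dose, 141 and 354, gave 466 and 697 with slopes, 243 and 432 without a filter, and 69 to 234 and 158 to 434 with single libraries left out. With slopes, high dose against vehicle gave 2634 and 2674, low dose against vehicle 2081 lower, and the comparison of extracts 1069 and 1436. Single libraries left out gave 1069 to 1442 and 1118 to 1532 for high dose against vehicle, 636 to 1391 and 473 to 1174 for low dose against vehicle, and 314 to 434 and 541 to 636 for the comparison of extracts. Summed chaperones, at a log2 ratio of -0.31 high over low dose, were at -0.271 on library totals without TMM, an alternative added after seeing the data; leaving out single libraries gave -0.312 to -0.301 for chaperones, -0.984 to -0.805 for metallothioneins and -0.287 to -0.196 for plasma proteins. Bile duct sums did not overlap on library totals, at 1166, 1223 and 1247 CPM at the high dose, against 1091, 1143 and 1057 CPM at the low dose. The cause of these shifts was not tested. Depth limits low genes: of the 9 higher and 17 lower genes called at least 2-fold, 2 averaged 5 CPM or more.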
